A study of Mus musculus with 2 samples.

Results

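Crabp2-Ephb1 fibroblasts are a subset of stromal cells of the mouse choroid, chosen here by a gate on raw UMI counts, where a UMI is 1 captured RNA molecule. Cells were barcodes with 1000 UMIs or more, 500 genes or more and no more than 20% mitochondrial UMIs. A fibroblast had at least 10 UMIs of Col1a1, Col1a2, Col3a1, Dcn and Lum together and at most 2 UMIs of Cdh5, Ptprc, Sox10, Higd1b and Myh11 together. Each fibroblast was given to the subset whose genes had the strictly largest sum of at least 3 UMIs, and the Crabp2-Ephb1 subset was defined by Crabp2, Ephb1 and Nrk. It held 760 of 10664 gated fibroblasts and of 21898 cells in all, 316 in library 1 and 444 in library 2. The other 6 subsets, each named after its gate genes, were Tfpi2-Tcf21 with 2767 cells, Ltbp2-Comp with 2289, Cxcl5-Csf3-Il11 with 1327, Pi16-Dpt-Clec3b with 549, Kera-Thbs4 with 537 and Angptl7-Cilp2 with 400, and 2035 fibroblasts fell in no subset.

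The study profiled single cells from dissected choroid with retinal pigment epithelium (RPE). The mice were 8-week-old wild-type animals of the outbred ICR strain, with no treatment and no mutant group. Each of the 2 libraries pooled this tissue from 1 male and 1 female mouse. It was digested with collagenase and trypsin before droplet capture and 3' sequencing. The comparisons are therefore between fibroblast subsets of the same animals. Every p-value sets a difference between subsets against how far such differences varied between 2 libraries of separate pools. In the main fit the overall difference between libraries was removed as a block. Library 1 held 91741168 UMIs and 8497 cells with a median of 7842 UMIs, and library 2 held 149570817 UMIs and 13401 cells with a median of 8253 UMIs. Barcodes with at most 100 UMIs, taken as free RNA, held 4.90% and 4.11% of the UMIs, and 31 cell barcodes occurred in both libraries. Scrublet, a doublet caller, marked 3.16% and 3.15% of the Crabp2-Ephb1 cells, which had a median of 8746 and 8886.5 UMIs.

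The gate genes belong to separate signalling systems. Crabp2 is a cytosolic carrier that hands retinoic acid to its nuclear receptors, and in the eye retinoic acid made by the choroid and the retinal pigment epithelium is known as a signal to the choroidal and scleral stroma. Ephb1 is a receptor tyrosine kinase for ephrin-B ligands on neighbouring cells, and Nrk is a serine/threonine kinase. Fmo1, a flavin-containing monooxygenase, and Fgfr2, a receptor tyrosine kinase for fibroblast growth factors, complete the marker set that gave the subset its name. Choroidal fibroblasts lie between the vessels and pigment cells of the choroid and make its collagen and matrix.

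In GRCm38, Crabp2 lies at chr3:87948666-87953376 on the plus strand, Ephb1 at chr9:101922128-102354693 on the minus strand and Nrk at chrX:138914430-139010532 on the plus strand. Fmo1 lies at chr1:162829561-162866610 and Fgfr2 at chr7:130162451-133123350, both on the minus strand, and each of these 5 is annotated as protein coding. Levels of all genes are counts scaled to 1000000 UMIs (CPM) after summing the cells of a subset within a library, which gave 14 summed profiles, 2 of Crabp2-Ephb1 cells and 12 of the other subsets. CPM used library sizes scaled by TMM, a correction for composition, unless raw CPM is named. Paired values are for library 1 and library 2 in that order. Cells of 1 library share their animals and are not replicates, so n is 2 for each subset.

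The 5 label genes describe the gate and were not tested. Crabp2 stood at 1097 and 257 CPM in Crabp2-Ephb1 fibroblasts, against 12.7 to 101 CPM in the other 12 profiles. Ephb1 stood at 73.0 and 104 CPM, against 0.889 to 23.6 CPM. Nrk stood at 217 and 359.7 CPM, against 21.3 to 93.5 CPM. For each of these 3 gate genes both values lay above all 12 others, which the gate itself produces. Fmo1 and Fgfr2 were not used to assign cells to a subset, yet they had helped to choose the label. Fmo1 stood at 338 and 282 CPM against 105 to 191 CPM, and Fgfr2 at 159 and 192 CPM against 29.8 to 158 CPM. Neither overlapped, although the lowest Fgfr2 value of the subset and the highest of the others lay within 1 CPM. Outside the fibroblasts, RPE cells held Fgfr2 at 149 and 108 raw CPM, against 150 and 212 raw CPM in Crabp2-Ephb1 cells. It was detected in 76.8% and 67.8% of RPE cells, at median depths of 25566 and 18397.5 UMIs, and in 52.8% and 69.4% of Crabp2-Ephb1 cells. Crabp2 was more than 4 times as high in library 1 as in library 2, whereas Ephb1 and Nrk were higher in library 2.

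**Figure D1:**
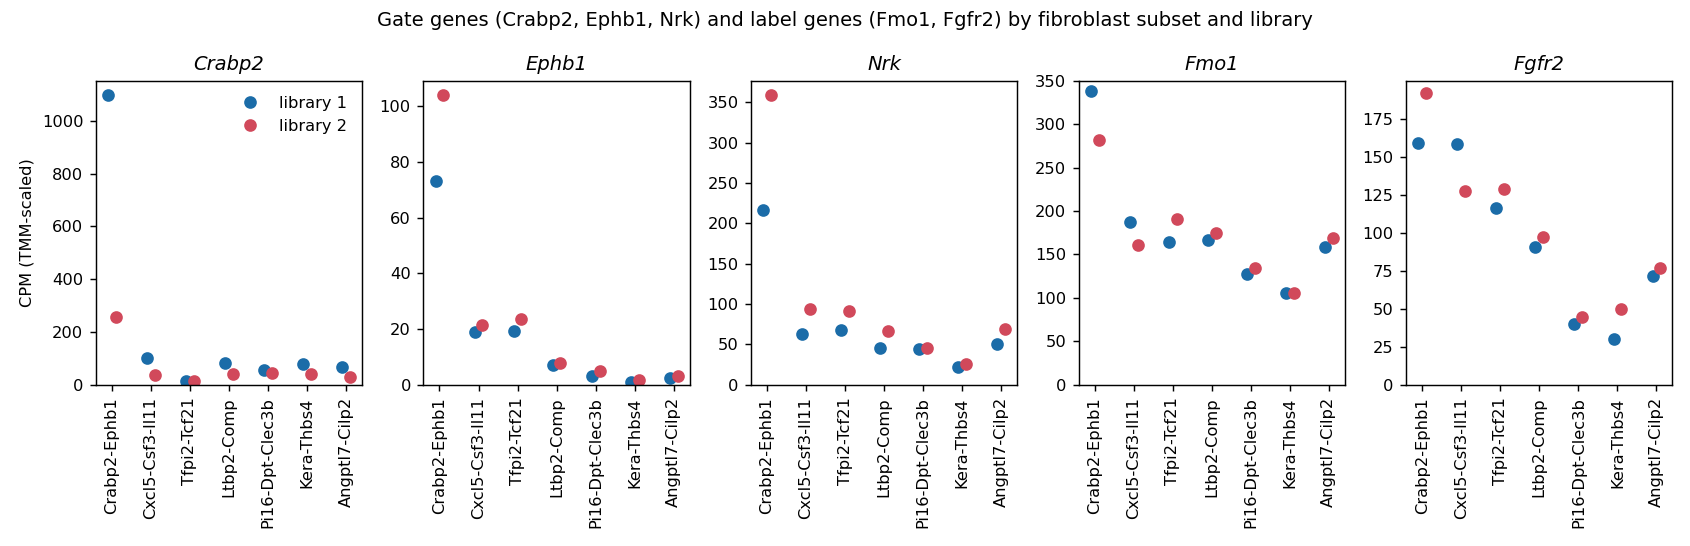
Levels of the 3 gate genes and the 2 further label genes (CPM) in each fibroblast subset, with 1 point per library and Crabp2-Ephb1 fibroblasts leftmost. Both Crabp2-Ephb1 points lie above every other point for all 5 genes, and for Crabp2 the library 1 point (1097) lies well above the library 2 point (257).

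Few cells carried the whole signature. Of the Crabp2-Ephb1 cells, 79.1% in library 1 and 51.8% in library 2 had at least 1 Crabp2 UMI, 25.3% and 43.7% had an Ephb1 UMI, and 52.8% and 78.4% had an Nrk UMI. In endothelial cells, at median depths of 8937 and 8216 UMIs, 3.17% and 1.65% had a Crabp2 UMI and 2.98% and 4.95% an Ephb1 UMI. In mural cells, at 5969 and 6216 UMIs, 3.02% and 5.70% had an Nrk UMI. Among all other gated fibroblasts 15.9% and 12.7% had a Crabp2 UMI, 6.29% and 8.94% an Ephb1 UMI and 22.8% and 33.0% an Nrk UMI. The higher detection in Crabp2-Ephb1 cells follows from the gate, which selects cells with these UMIs. The other values are levels in cells outside the subset. All 3 gate genes were detected together in 6.33% and 10.6% of the subset's cells, 2 of them in 44.6% and 52.7%, and only 1 in 49.1% and 36.7%. The gate sum of another subset also reached 3 UMIs in 53.5% and 48.2% of them.

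The sum of the 3 gate genes had a median of 8 and 7 UMIs per Crabp2-Ephb1 cell, and 11.4% and 14.9% of the cells sat at exactly 3. Just outside, 33 and 81 fibroblasts had a sum of 2 that was above every other sum, 32 and 70 were tied with another subset, and 449 and 827 had a sum of at least 3 with another sum higher. In raw CPM, Fmo1 stood at 195 and 291 in cells with a sum of 3 and at 266 and 229.6 in those with a sum of 2. Pgf stood at 329 and 414 with a sum of 3 and at 233 and 287 with a sum of 2, and Rspo3 at 53.7 and 125 against 74.9 and 82.6. Pgf was thus higher with a sum of 3 in both libraries, while Fmo1 and Rspo3 were lower in library 1 and higher in library 2. Other genes also differed at the limit in both libraries, in either direction. Areg stood at 23.5 and 85.7 with a sum of 3, against 4.16 and 42.9 with a sum of 2. Procr stood at 493 and 528, against 1336 and 616. No test was made.

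The subset made up 7.57% of the gated fibroblasts in library 1 (exact binomial 95% interval 6.78 to 8.41) and 6.84% in library 2 (6.24 to 7.49). The mean was 7.20% ± 0.510 (SD, n = 2), and the intervals cover counting error only. After every cell was thinned to 3000 UMIs the mean share was 4.39%, so the share depends on depth.

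Cells were then compared with profiles from the other library, by correlation of centred log levels over the 1000 most variable genes outside the gates and labels. Of the Crabp2-Ephb1 cells, 46.5% in library 1 and 52.5% in library 2 were nearest to the Crabp2-Ephb1 profile of the other library, and 35.4% and 31.3% were nearest to the Tfpi2-Tcf21 profile. Cells of other subsets returned to their own profile in 94.9% and 91.9% of cases for Tfpi2-Tcf21, 63.9% and 62.7% for Pi16-Dpt-Clec3b, and 7.55% and 5.99% for Cxcl5-Csf3-Il11. The Crabp2-Ephb1 profile drew 17.0% and 10.7% of the Ltbp2-Comp cells, 14.2% and 11.6% of the Cxcl5-Csf3-Il11 cells and 13.6% and 14.2% of the fibroblasts with no subset. It drew 0% and 0.515% of the Angptl7-Cilp2 cells. About 1 in 2 Crabp2-Ephb1 cells thus matched their own label, and the cells are described here by their gate. Median depth was 5605 and 5800.5 UMIs in Tfpi2-Tcf21 cells, and its part in these shares was not tested.

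**Figure D2:**
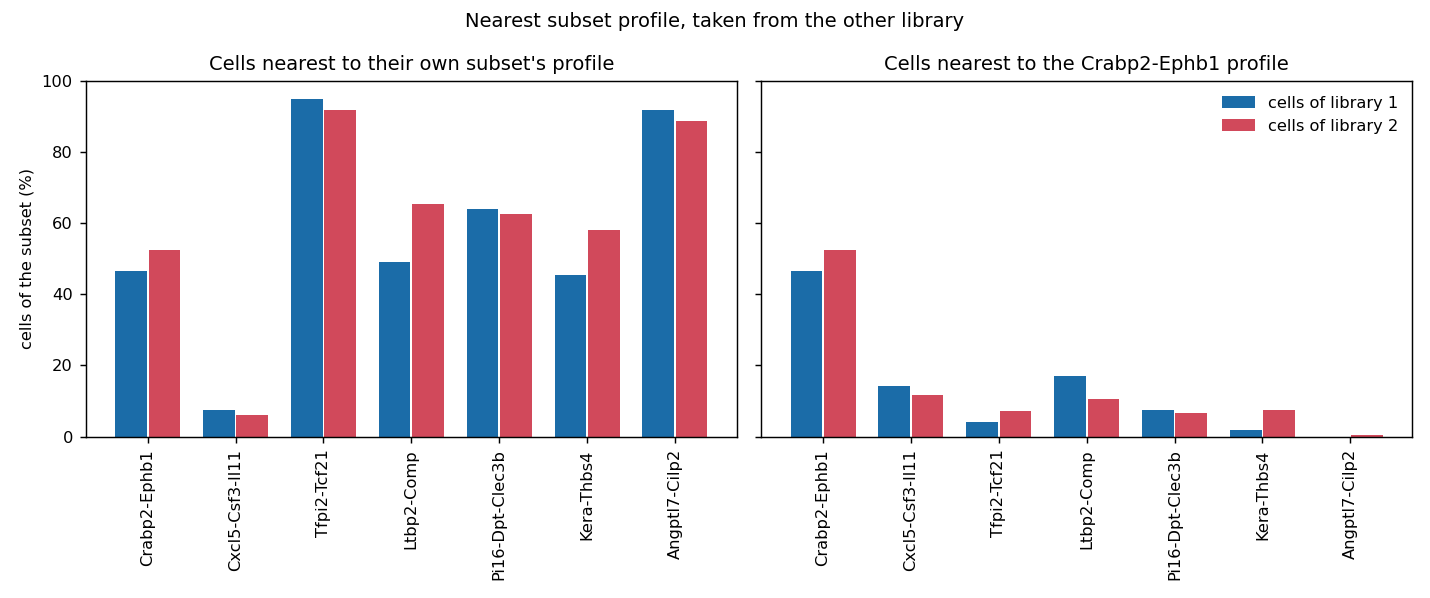
Share of the cells of each fibroblast subset (percent) nearest to their own subset's profile (left) and nearest to the Crabp2-Ephb1 profile (right), with profiles from the other library. Of the Crabp2-Ephb1 cells 46.5% and 52.5% were nearest to their own profile. The Crabp2-Ephb1 profile drew 4.06% and 7.18% of the Tfpi2-Tcf21 cells.

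Differences in expression were tested with edgeR's quasi-likelihood test on the summed counts, with library as a block, for 12303 genes outside the gates and labels. The contrast was Crabp2-Ephb1 fibroblasts minus the mean of the other 6 subsets, and a gene was called at an adjusted p (Benjamini-Hochberg over all genes tested) under 0.05 and an absolute log2 fold change of 1 or more. In Crabp2-Ephb1 fibroblasts 405 genes were higher (3.29% of those tested) and 163 were lower (1.32%). Genes that go with the gate genes are carried along by the gate. These tests thus give the size of a difference against how far subset differences varied between libraries. They are no independent evidence of a separate class. The median log2 fold change of all genes was -0.0045. At an unadjusted p under 0.05 by edgeR and any size, 2030 of the 12303 genes were higher and 1348 were lower. Counts of gene lists at an unadjusted p are to be read beside these.

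Many of the genes raised in Crabp2-Ephb1 fibroblasts were also high in another subset. Of the 405, 213 had their highest mean in Tfpi2-Tcf21 fibroblasts and 155 in Crabp2-Ephb1 fibroblasts. Both Crabp2-Ephb1 values lay above all 12 others for 57 of the 405 and for 1.15% of all genes tested, which cannot be compared because the 405 were chosen for being higher. Of the 163 lower genes, 80 had their highest mean in Angptl7-Cilp2 fibroblasts, 35 in Kera-Thbs4 and 34 in Pi16-Dpt-Clec3b fibroblasts. Both Crabp2-Ephb1 values lay below all 12 others for 32 of the 163 and for 0.910% of all genes tested, which likewise cannot be compared.

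No gene was higher than in every other subset at once by edgeR when the largest of the 6 pairwise p-values was adjusted over all genes. At an unadjusted p under 0.05 there were 79 such genes, 6 of them also 1 or more log2 units above each subset, and DESeq2, the other tool run, also gave 0. For genes lower than in every other subset edgeR gave 0 and 21 at an unadjusted p under 0.05.

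The 15 largest increases with a mean of at least 50 CPM in the Crabp2-Ephb1 subset included secreted signals and membrane proteins. Rspo3, a secreted enhancer of Wnt signalling, stood at 50.1 and 72.6 CPM in Crabp2-Ephb1 fibroblasts, against values between 0 and 52.5 CPM in the other profiles (log2 fold change 3.07, standard error 0.19, adjusted p = 2.99e-07). Its fitted fold change depends on the prior count because some profiles were at 0, and the library 1 value of Crabp2-Ephb1 fibroblasts lay just inside the range of the others. F11r, the tight-junction protein JAM-A, stood at 58.1 and 46.2 CPM, against values between 1.67 and 36.8 CPM (log2 fold change 2.24, standard error 0.14, adjusted p = 2.50e-07). Pgf, placental growth factor, a ligand of the VEGF receptor Flt1, stood at 335 and 280.3 CPM, against values between 6.25 and 180.0 CPM (log2 fold change 2.09, standard error 0.33, adjusted p = 0.00655). The groups did not overlap for F11r and Pgf.

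Ano1, a calcium-activated chloride channel, stood at 50.1 and 73.6 CPM in Crabp2-Ephb1 fibroblasts, against values between 3.11 and 33.2 CPM (log2 fold change 2.02, standard error 0.15, adjusted p = 1.18e-06). Areg, the EGF receptor ligand amphiregulin, stood at 67.8 and 47.2 CPM, against values between 1.25 and 28.3 CPM (log2 fold change 1.97, standard error 0.42, adjusted p = 0.0201). Stom, the membrane protein stomatin, stood at 80 and 89.9 CPM, against values between 8.44 and 61 CPM (log2 fold change 1.88, standard error 0.11, adjusted p = 1.72e-07). Both Crabp2-Ephb1 values lay above those of all other fibroblast subsets for these 3 genes, which with F11r and Pgf made 5 of the 15. Outside the fibroblasts most of these 5 were higher in raw CPM. F11r stood at 188 and 151 in endothelial cells, against 54.8 and 51.2 in Crabp2-Ephb1 cells. In mural cells Ano1 stood at 104 and 161, against 47.3 and 81.6, and Stom at 85.6 and 106, against 75.5 and 99.6. Areg stood at 236 and 103 in macrophages, against 64.0 and 52.3. Pgf was lower in every other class.

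The remaining members of the 15 did not lie above all other profiles. Crym, a thyroid hormone-binding crystallin, stood at 162 and 52.5 CPM, against values between 3.33 and 148 CPM (log2 fold change 2.17, standard error 0.30, adjusted p = 0.00245), and its library 1 value was more than 3 times that of library 2. Alkal2, a ligand of the receptor ALK, stood at 86.3 and 128 CPM in Crabp2-Ephb1 fibroblasts and reached 347 and 275 CPM in Tfpi2-Tcf21 fibroblasts. Procr, the endothelial protein C receptor, stood at 874 and 638 CPM and reached 1619 and 824 CPM in Tfpi2-Tcf21 fibroblasts. For Procr the mural class, at 1924 and 1529 raw CPM, was higher still. Emcn, the sialomucin endomucin known from endothelium, stood at 267 and 266 CPM, against 454 and 421 CPM in Tfpi2-Tcf21 fibroblasts, and at 1322 and 1221 raw CPM in endothelial cells. Free RNA held Emcn at 216 and 206 raw CPM, against 252.5 and 294.6 raw CPM in Crabp2-Ephb1 cells, and the part of free RNA in the Emcn result was not tested. Pdlim3, an actin-associated LIM protein, had 72 and 56.1 CPM (log2 fold change 2.21) and Col10a1, the collagen X known from hypertrophic cartilage, had 43.1 and 74.7 CPM (log2 fold change 2.13).

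**Figure D3:**
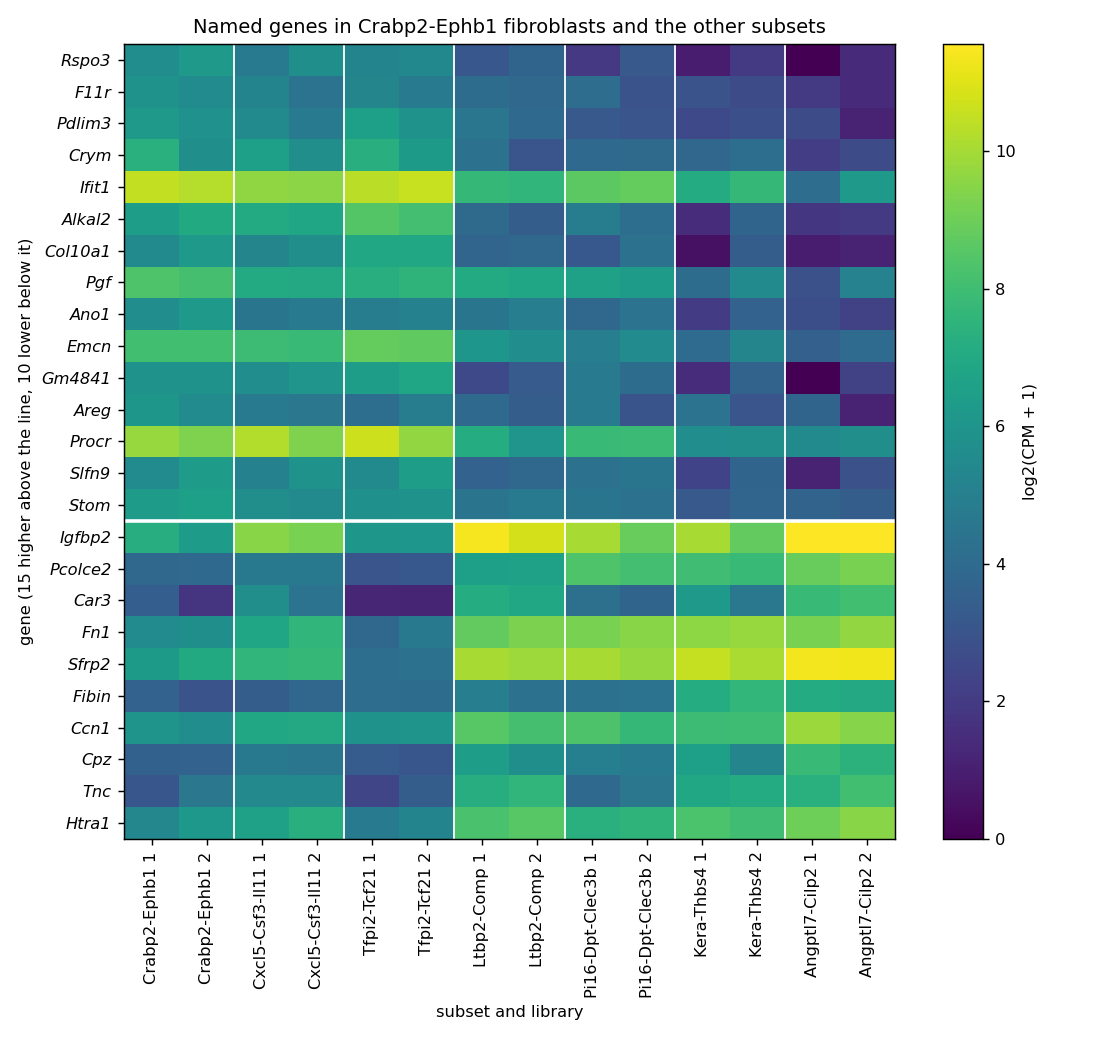
Levels of the 15 largest increases and 10 largest decreases (log2 of CPM plus 1) in the 14 summed profiles, with the Crabp2-Ephb1 profiles leftmost. Of the raised genes 9 have their highest mean in Tfpi2-Tcf21 fibroblasts, and of the lowered genes 8 have theirs in Angptl7-Cilp2 and 2 in Kera-Thbs4 fibroblasts.

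Of these 15 genes, 9 had their highest mean in Tfpi2-Tcf21 fibroblasts and 6 in Crabp2-Ephb1 fibroblasts. Against Tfpi2-Tcf21 fibroblasts alone, none of the 15 was higher and 1 was lower, Alkal2 (log2 fold change -1.50, adjusted p = 0.0364). Against Cxcl5-Csf3-Il11 fibroblasts 1 was higher, Ano1 (log2 fold change 1.35, adjusted p = 0.00356), and against Ltbp2-Comp fibroblasts 14 were higher.

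Genes with their highest level in Crabp2-Ephb1 fibroblasts and a mean there of at least 50 CPM were ranked by the smallest of their 6 pairwise log2 fold changes. Genes under 50 CPM were left out of this ranking, whatever their fold change. Areg led at 1.16 with Cxcl5-Csf3-Il11 fibroblasts nearest, followed by Ano1 at 0.98 and Pgf at 0.88 with Tfpi2-Tcf21 fibroblasts nearest. Atp8b1, a phospholipid flippase, followed at 0.86 with 96.3 and 176 CPM. Then came F11r at 0.76, the ETS transcription factor Fli1 at 0.69, Rspo3 at 0.64, the orphan receptor Gprc5a at 0.60, the small GTPase Mras at 0.59 and the ubiquitin ligase Wwp2 at 0.58. None passed the test against every subset, and the lowest adjusted p among these 10, that of Atp8b1, was 0.192 with edgeR. After thinning every cell to 3000 UMIs Ano1 passed it, with a smallest pairwise log2 fold change of 1.68 and an adjusted p of 0.000559.

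**Figure D4:**
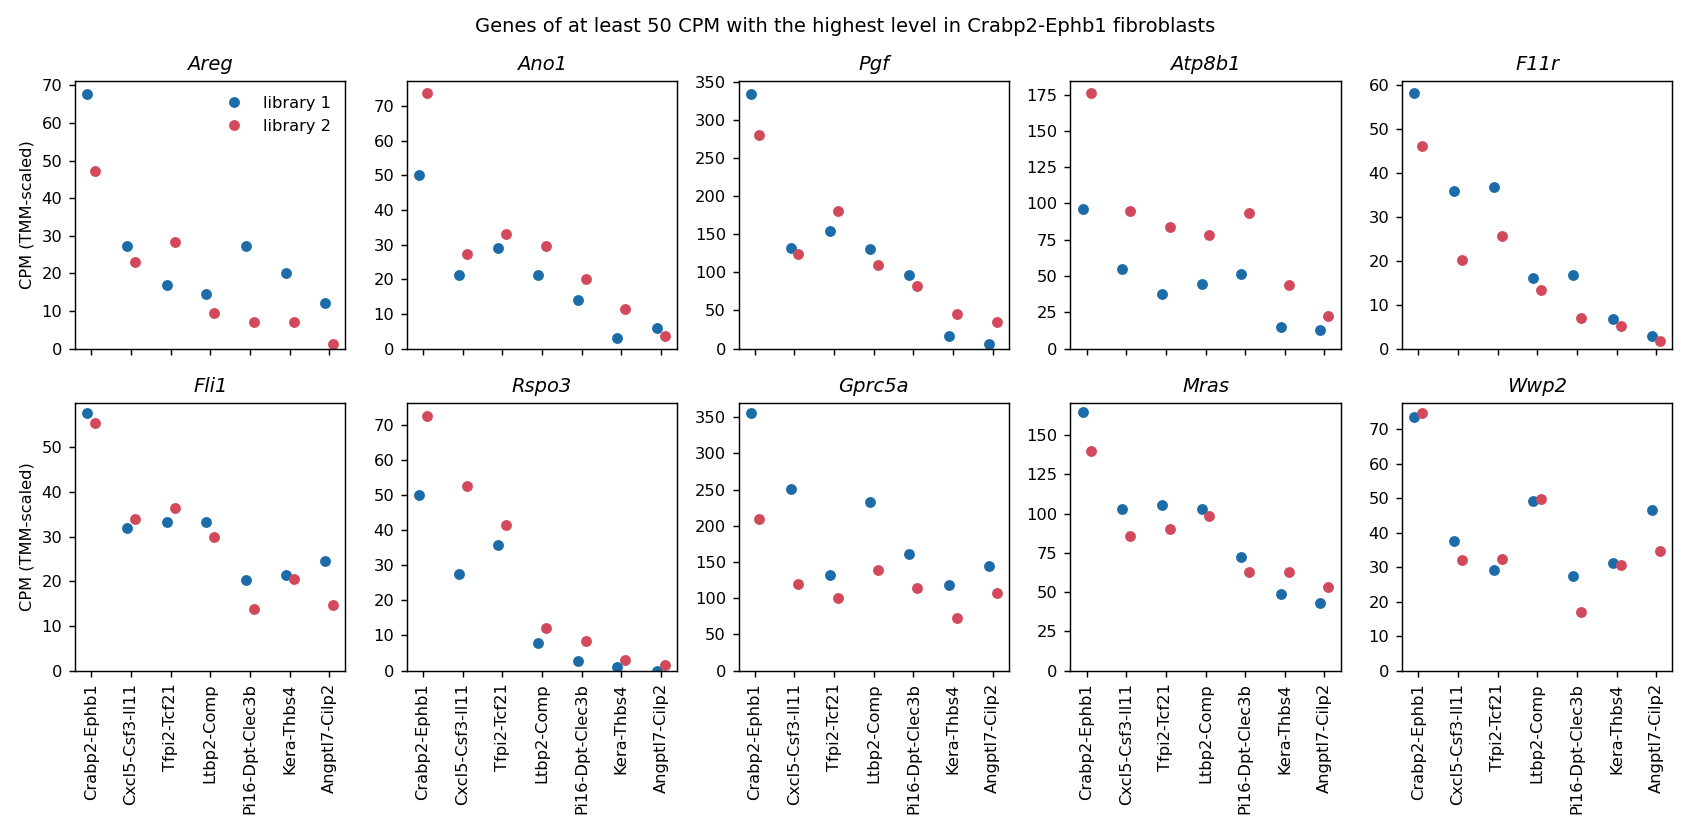
Levels (CPM) of the 10 genes with the largest smallest-pairwise fold change among genes with a mean of at least 50 CPM in Crabp2-Ephb1 fibroblasts. There is 1 point per library and subset, with Crabp2-Ephb1 fibroblasts first. Both Crabp2-Ephb1 points of Areg (67.8 and 47.2) and Ano1 (50.1 and 73.6) lie above all other points.

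The retinoic acid list held 28 genes, of which Crabp2 served the gate and 24 were tested. Of these, 2 were higher in Crabp2-Ephb1 fibroblasts, beside 3.29% of all genes tested, and 0 were lower by edgeR, 4 were lower at an unadjusted p under 0.05, and DESeq2 also called 0 lower. The list's log2 fold changes ran from -0.95 to 1.81 with a median of 0.095, against -0.0045 for all genes. Rarb, the retinoic acid receptor whose own gene is a known retinoic acid target, stood at 46.3 and 30.7 CPM in Crabp2-Ephb1 fibroblasts, against values between 5.85 and 40.7 CPM (log2 fold change 1.09, standard error 0.16, adjusted p = 3.49e-04). Tgm2, a transglutaminase also known to respond to retinoic acid, stood at 149 and 142 CPM, against values between 7.92 and 168 CPM (log2 fold change 1.81, standard error 0.17, adjusted p = 6.85e-05). For neither gene did both values lie above all other profiles. The 250 bases before the start of Rarb are shown because they hold a match, in capitals, to a direct repeat of GNTCA with 6 bases between, in the RefSeq annotation of GRCm38.p6 at chr14:16575477-16575726, minus strand, printed 5′ to 3′ along the gene.
Rarb: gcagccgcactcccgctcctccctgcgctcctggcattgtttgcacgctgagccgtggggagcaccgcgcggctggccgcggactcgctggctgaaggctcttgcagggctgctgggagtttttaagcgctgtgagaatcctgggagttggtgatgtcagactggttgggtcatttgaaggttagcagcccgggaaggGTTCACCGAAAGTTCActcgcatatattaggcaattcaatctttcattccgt

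The motif was searched on both strands of 250 bases, and 244 of 27025 genes with an entry held it (0.903%). Among genes higher in Crabp2-Ephb1 fibroblasts 2 of 299 with an entry held it (0.669%), and among all genes tested 61 of 9608 (0.635%). Rarb's own window is thus a description of 1 gene, and the motif was about as frequent among the higher genes as among all tested.

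None of the tested enzymes that make and remove retinoic acid passed both thresholds. Aldh1a2, which makes retinoic acid, stood at 154 and 154 CPM in Crabp2-Ephb1 fibroblasts, against values between 29.8 and 275 CPM (log2 fold change 0.75, standard error 0.15, adjusted p = 0.00564). Aldh1a1, a related enzyme, stood at 24.3 and 29.1 CPM, against values between 25.4 and 155 CPM (log2 fold change -0.91, standard error 0.14, adjusted p = 3.25e-04). Both had an adjusted p under 0.05 at a size under 1. Cyp26b1, which degrades retinoic acid, stood at 15 and 30.1 CPM, against values between 2.34 and 223 CPM (log2 fold change -0.95, standard error 0.31, adjusted p = 0.0784). Cyp26a1, a relative of Cyp26b1, is a gate gene of Ltbp2-Comp and was not tested. It stood at 109 and 59 CPM in Crabp2-Ephb1 fibroblasts, against 864 and 499 CPM in Ltbp2-Comp fibroblasts. Rdh10, a retinol dehydrogenase, stood at 189 and 157 CPM, against values between 27.1 and 554 CPM. The receptors Rara and Rarg stood at 34.1 and 26 CPM and 24.7 and 26.9 CPM. Crabp1, the paralogue of Crabp2, was near the floor at 0.696 and 0.610 CPM, and Fabp5, another carrier known to deliver retinoic acid, stood at 53.6 and 61.4 CPM.

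None of the 15 tested Eph receptors and ephrins passed both thresholds in either direction by edgeR or DESeq2. Of all genes tested, edgeR called 3.29% higher and 1.32% lower. Of the 15, 3 were higher and 2 lower at an unadjusted p under 0.05, and their log2 fold changes ran from -0.84 to 0.98 with a median of 0.050. Ephb2, the closest to passing, stood at 31.3 and 41.9 CPM in Crabp2-Ephb1 fibroblasts, against values between 11.9 and 29.8 CPM (log2 fold change 0.98, standard error 0.12, adjusted p = 5.18e-05), with no overlap. Epha3 stood at 3.83 and 4.68 CPM, against values between 2.85 and 14.3 CPM (log2 fold change -0.82, standard error 0.24, adjusted p = 0.0308). Of the ephrin-B ligands that bind Ephb1, Efnb1 stood at 39 and 38.7 CPM and Efnb2 at 23 and 31.7 CPM in the summed profiles, which do not show whether receptor and ligand occur in the same cell. Efnb2 stood at 81.5 and 85.3 CPM in Tfpi2-Tcf21 fibroblasts.

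Of 20 tested genes of the FGF list, 2 were higher and 2 were lower, beside 3.29% higher and 1.32% lower of all genes tested, with log2 fold changes from -2.91 to 1.26 and a median of 0.24. Fgf7, a ligand of the epithelial form of Fgfr2, stood at 52.5 and 50.7 CPM in Crabp2-Ephb1 fibroblasts, against values between 6.22 and 79.4 CPM (log2 fold change 1.04, standard error 0.18, adjusted p = 0.00177). Fgfr3, a related receptor, stood at 23 and 30.3 CPM, against values between 4.0 and 30.6 CPM (log2 fold change 1.26, standard error 0.18, adjusted p = 2.05e-04). Neither lay above all other profiles. Fgf18 stood at 81.4 and 36.2 CPM, against values between 23 and 312 CPM (log2 fold change -1.21, standard error 0.24, adjusted p = 0.0109), and its 2 libraries differed by more than 2 times. Fgf21 was near the floor at 1.04 and 0.610 CPM, against values between 0.924 and 31.4 CPM (log2 fold change -2.91, standard error 0.71, adjusted p = 0.0159). Fgf2 stood at 73.4 and 67.3 CPM, below all 12 other values, which lay between 74 and 218 CPM, with an adjusted p under 0.05 at a size under 1 (log2 fold change -0.84, standard error 0.13, adjusted p = 7.66e-04). Fgfr1, a further FGF receptor, stood at 507 and 542 CPM.

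Fmo1 belongs to a family of drug-oxidising enzymes. Of 15 tested FMO and xenobiotic enzyme genes 4 were higher, namely Ces1d, Aox3, Fmo2 and Cyp1b1, beside 3.29% of all genes tested, and 0 were lower by edgeR and by DESeq2, also at an unadjusted p under 0.05. The median log2 fold change was 0.36. Ces1d, a carboxylesterase, stood at 27.5 and 19.5 CPM in Crabp2-Ephb1 fibroblasts, against values between 1.67 and 14 CPM (log2 fold change 1.86, standard error 0.24, adjusted p = 1.11e-04), with no overlap. Aox3, an aldehyde oxidase, stood at 50.8 and 58 CPM, against values between 5.33 and 59.8 CPM (log2 fold change 1.33, standard error 0.14, adjusted p = 1.05e-05). Fmo2, a paralogue of Fmo1, stood at 53.6 and 44.3 CPM, against values between 9.04 and 77.9 CPM (log2 fold change 1.28, standard error 0.16, adjusted p = 6.85e-05). Aox3 and Fmo2 did not lie above all other profiles. Ces1d and Fmo2 have close paralogues, and how reads shared with them were counted was not stated in the labels.

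Of 36 tested transcription factors of the periocular and craniofacial mesenchyme 5 were higher, namely Osr1, Foxf1, Foxd1, Nr2f1 and Tbx3, beside 3.29% of all genes tested, and 0 were lower by edgeR and by DESeq2, with 5 lower at an unadjusted p under 0.05. Their median log2 fold change was 0.28. Foxd1, a forkhead factor, stood at 40 and 32.1 CPM in Crabp2-Ephb1 fibroblasts, against values between 4.18 and 24.3 CPM (log2 fold change 1.63, standard error 0.16, adjusted p = 7.26e-06), with no overlap. Osr1, a zinc-finger factor, stood at 24 and 15.5 CPM, against values between 0 and 37.2 CPM (log2 fold change 2.38, standard error 0.26, adjusted p = 1.83e-05). Foxf1 was low at 2.78 and 7.12 CPM, against values between 0 and 13.2 CPM (log2 fold change 2.13, standard error 0.55, adjusted p = 0.0190). Both Osr1 and Foxf1 were at 0 in some profiles and highest in Tfpi2-Tcf21 fibroblasts, so their fitted fold changes depend on the prior count.

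Of 45 tested vessel growth factors and guidance cues 7 were higher, namely Pgf, Kitl, Sema3d, Angpt1, Slit2, Ntn1 and Hgf, and 3 were lower, namely Sema3a, Angptl1 and Sema3b, beside 3.29% higher and 1.32% lower of all genes tested, with a median log2 fold change of 0.45. Kitl, the ligand of the receptor Kit used by melanocytes and mast cells, stood at 524 and 778 CPM in Crabp2-Ephb1 fibroblasts, against values between 30 and 834 CPM (log2 fold change 1.71, standard error 0.12, adjusted p = 5.51e-06). Angpt1, a ligand of the endothelial receptor Tie2, stood at 392 and 587 CPM, against values between 49.3 and 429 CPM (log2 fold change 1.40, standard error 0.10, adjusted p = 7.37e-07). Both were also high in Tfpi2-Tcf21 fibroblasts, where Kitl stood at 512 and 834 CPM and Angpt1 at 319 and 429 CPM. Sema3a, a repulsive guidance cue, stood at 2.78 and 4.07 CPM, against values between 1.23 and 71.8 CPM (log2 fold change -1.78, standard error 0.26, adjusted p = 2.33e-04). Angpt1 was given its values after they had been seen.

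Of 44 tested Wnt pathway genes 8 were higher, namely Rspo3, Wnt6, Wnt2b, Wnt4, Fzd4, Ror1, Frzb and Sost, and 3 were lower, namely Sfrp2, Lgr5 and Nkd1, beside 3.29% higher and 1.32% lower of all genes tested, with a median of 0.093. Wnt6 was at 2.09 and 2.64 CPM in Crabp2-Ephb1 fibroblasts, against values between 0 and 6.0 CPM with some profiles at 0 (log2 fold change 2.30, standard error 0.64, adjusted p = 0.0249). Sfrp2, a secreted modulator of Wnt signalling, stood at 78.6 and 130.2 CPM, against values between 17.2 and 2575 CPM (log2 fold change -2.17, standard error 0.22, adjusted p = 2.57e-04). The count of higher Wnt genes was 3 without the library block and 4 after thinning.

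Of 14 tested genes of the IGF axis 1 was higher, Pappa2, a protease that cleaves IGF-binding proteins, and 3 were lower, namely Igfbp2, Htra1 and Igf1, beside 3.29% higher and 1.32% lower of all genes tested, with a median of -0.11. Pappa2 stood at 76.2 and 149 CPM in Crabp2-Ephb1 fibroblasts, against values between 1.78 and 235 CPM (log2 fold change 1.65, standard error 0.19, adjusted p = 3.52e-04). Of 35 tested BMP and TGF-beta genes 0 were higher, by edgeR and by DESeq2, with 7 higher at an unadjusted p under 0.05, and 3 were lower, namely Bmp4, Bmp6 and Inhbb, beside 1.32% of all genes tested, with a median of -0.049. Bmp4, a ligand of the family, stood at 18.8 and 11 CPM, against values between 17.1 and 70.4 CPM (log2 fold change -1.04, standard error 0.20, adjusted p = 0.00221).

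Ifit1, known as an RNA-binding protein induced by interferon, was among the 15 largest increases. It stood at 1444 and 1216 CPM in Crabp2-Ephb1 fibroblasts, against values between 16.2 and 1525 CPM in the other profiles (log2 fold change 2.17, standard error 0.30, adjusted p = 0.00388). Slfn9, of the Schlafen family, stood at 47 and 79.9 CPM, against values between 1.25 and 86.7 CPM (log2 fold change 1.91, standard error 0.17, adjusted p = 5.61e-06), and Gm4841 at 59.8 and 61 CPM, against values between 0 and 113 CPM (log2 fold change 2.01, standard error 0.35, adjusted p = 0.00767). None of the 3 lay above all other profiles. In Tfpi2-Tcf21 fibroblasts Ifit1 stood at 1316 and 1525 CPM, and Gm4841 stood at 87.1 and 113 CPM, with both Crabp2-Ephb1 values below both of these. Cxcl10, a chemokine also known to be induced by interferon, stood at 747 and 428 CPM, against values between 2.92 and 1643 CPM (log2 fold change 1.84, standard error 0.38, adjusted p = 0.0211). Slfn9 and Gm4841 have close relatives with which they could share reads. The 250 bases before the starts of Ifit1, Slfn9 and Cxcl10 are shown because each holds, in capitals, GAAA followed 2 bases later by GAAA on 1 of its strands, the core of a sequence known to bind interferon-responsive factors. They are from RefSeq on GRCm38.p6, Ifit1 at chr19:34640639-34640888 on the plus strand, Slfn9 at chr11:82991831-82992080 and Cxcl10 at chr5:92348890-92349139 on the minus strand, each printed 5′ to 3′ along its gene.
Ifit1: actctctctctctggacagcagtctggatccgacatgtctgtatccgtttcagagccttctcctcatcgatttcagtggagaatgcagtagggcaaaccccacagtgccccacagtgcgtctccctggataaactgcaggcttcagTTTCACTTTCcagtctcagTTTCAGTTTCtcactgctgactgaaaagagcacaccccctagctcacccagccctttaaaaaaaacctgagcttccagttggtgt
Slfn9: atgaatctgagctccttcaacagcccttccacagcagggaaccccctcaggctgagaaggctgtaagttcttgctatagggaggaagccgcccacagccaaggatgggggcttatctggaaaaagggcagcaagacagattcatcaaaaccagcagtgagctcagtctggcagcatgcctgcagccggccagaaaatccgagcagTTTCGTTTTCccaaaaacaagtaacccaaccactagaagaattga
Cxcl10: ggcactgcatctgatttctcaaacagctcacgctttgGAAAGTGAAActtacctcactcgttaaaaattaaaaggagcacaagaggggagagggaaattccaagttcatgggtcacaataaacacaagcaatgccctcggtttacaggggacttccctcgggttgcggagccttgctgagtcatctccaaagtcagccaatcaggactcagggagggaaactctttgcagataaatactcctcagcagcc

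In Ifit1 and Slfn9 the capitals are the motif's opposite strand. The GAAA repeat with any 2 bases between was searched on both strands, and 37 of 299 genes higher in Crabp2-Ephb1 fibroblasts with an entry held it (12.4%). It was held by 4 of 123 lower genes (3.25%) and by 307 of 9608 genes tested (3.20%). The gate and label genes with an entry, Ephb1, Nrk and Fgfr2, held neither motif. A match is a description of these letters and does not show binding.

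Csf1, a macrophage growth factor, was lower in Crabp2-Ephb1 fibroblasts. It stood at 109.5 and 105 CPM, below all 12 other values, which lay between 121 and 463 CPM (log2 fold change -1.15, standard error 0.12, adjusted p = 2.52e-05).

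Matrix genes were among the genes lower in Crabp2-Ephb1 fibroblasts. Of 24 tested collagen genes 7 were lower, Col11a2, Col5a3, Col18a1, Col5a1, Col6a3, Col12a1 and Col14a1, beside 1.32% of all genes tested, and 0 were higher by edgeR, with 2 higher at an unadjusted p under 0.05 and 1 higher by DESeq2. Their median log2 fold change was -0.75, against -0.0045 for all genes. The count of lower collagens was 1 without the library block and 3 when fibroblasts with no subset joined the comparison. Col5a3 stood at 6.26 and 12 CPM, against values between 5.53 and 122 CPM (log2 fold change -1.40, standard error 0.22, adjusted p = 5.13e-04), and Col18a1, a basement membrane collagen, at 9.39 and 11.4 CPM, against values between 10 and 56.3 CPM (log2 fold change -1.28, standard error 0.23, adjusted p = 0.00160).

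Of 37 tested proteoglycans and matrix glycoproteins 9 were lower, namely Fn1, Emilin2, Tnc, Fmod, Omd, Aspn, Sparc, Matn2 and Matn4, beside 1.32% of all genes tested, and 0 were higher by edgeR and by DESeq2, with 3 higher at an unadjusted p under 0.05. The median was -0.46. Fn1, fibronectin, stood at 47.3 and 52.9 CPM in Crabp2-Ephb1 fibroblasts, against values between 14.1 and 871 CPM (log2 fold change -2.53, standard error 0.14, adjusted p = 2.50e-07). Tnc, tenascin C, stood at 7.65 and 23 CPM, against values between 4.35 and 262 CPM (log2 fold change -1.78, standard error 0.26, adjusted p = 0.00135), with the library values about 3 times apart. Emilin2 stood at 1.39 and 1.42 CPM, against values between 1.34 and 108 CPM (log2 fold change -2.39, standard error 0.38, adjusted p = 5.14e-04). None of the 3 lay below all other profiles, and Fn1 was higher than in Tfpi2-Tcf21 fibroblasts, where it stood at 14.1 and 24.3 CPM (log2 fold change 1.38, adjusted p = 1.16e-04). Of 28 tested matrix proteases and inhibitors 4 were lower, namely Htra1, Adamts17, Mmp23 and Mmp2, beside 1.32% of all genes tested, and 0 were higher by edgeR and DESeq2, with 9 higher at an unadjusted p under 0.05 and a median of 0.23.

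The largest decreases also held binding proteins and enzymes. Igfbp2, an IGF-binding protein, stood at 146 and 83.2 CPM in Crabp2-Ephb1 fibroblasts, against values between 65.8 and 3008 CPM (log2 fold change -2.73, standard error 0.33, adjusted p = 0.00166). Pcolce2, an enhancer of procollagen processing, stood at 13.9 and 14.4 CPM, against values between 7.37 and 602 CPM (log2 fold change -2.73, standard error 0.14, adjusted p = 1.51e-07). Car3, carbonic anhydrase 3, stood at 10.1 and 2.44 CPM, against values between 1.31 and 262 CPM (log2 fold change -2.53, standard error 0.61, adjusted p = 0.0337). Ccn1, a matricellular protein, stood at 61.9 and 49.2 CPM, against values between 59.6 and 912 CPM (log2 fold change -2.02, standard error 0.15, adjusted p = 2.18e-06). It was the 1 lower gene of 31 tested immediate early and stress genes, beside 1.32% of all genes tested. Of the 31, edgeR and DESeq2 called 0 higher, beside 3.29% of all genes tested, and 8 were higher at an unadjusted p under 0.05. Fibin stood at 11.5 and 6.71 CPM, the carboxypeptidase Cpz at 11.1 and 11.4 CPM and the serine protease Htra1 at 40 and 69.8 CPM, which with Fn1, Tnc and Sfrp2 complete the 10. None of the 10 separated both Crabp2-Ephb1 values from all others, since 1 or more other profiles were as low or lower, and 8 of the 10 had their highest mean in Angptl7-Cilp2 fibroblasts. Against Ltbp2-Comp fibroblasts all 10 were lower, against Cxcl5-Csf3-Il11 fibroblasts 5 were, and against Tfpi2-Tcf21 fibroblasts 0 were lower and 2 were higher.

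The counts for markers of other stromal types stand beside 3.29% higher and 1.32% lower of all genes tested. Of 8 tested tendon markers 3 were lower, Scx, Fmod and Tnc, and 0 were higher by edgeR and DESeq2, with 1 higher at an unadjusted p under 0.05. Scx, a tendon transcription factor, stood at 6.96 and 5.29 CPM in Crabp2-Ephb1 fibroblasts, against values between 0.924 and 122 CPM (log2 fold change -1.58, standard error 0.29, adjusted p = 0.00259). Of 10 tested cartilage markers 2 were higher, Cytl1 and Col10a1, and 2 were lower, Chad and Prg4. Cytl1 stood at 35.5 and 17.9 CPM, against values between 0 and 20.7 CPM (log2 fold change 3.39, standard error 0.30, adjusted p = 5.51e-06), with some profiles at 0, and Chad, chondroadherin, at 108 and 76.5 CPM, against values between 11.7 and 1479 CPM (log2 fold change -1.67, standard error 0.15, adjusted p = 2.34e-05). Of the 16 cartilage genes 6 and 4 were at 0 in Crabp2-Ephb1 fibroblasts, Col9a1, Matn1, Matn3 and Hapln1 in both libraries. Matn1 and Matn3 were also at 0 in both libraries of Pi16-Dpt-Clec3b and Cxcl5-Csf3-Il11 fibroblasts. Of 18 tested markers of leptomeningeal fibroblasts 3 were higher, Slc47a1, Foxd1 and Cldn11, and 2 were lower, Dpp4 and Igfbp2. Slc47a1, a transporter, stood at 13.2 and 7.53 CPM, against values between 0.417 and 3.68 CPM (log2 fold change 2.84, standard error 0.33, adjusted p = 3.48e-05), with no overlap. The leptomeningeal markers Slc22a6 and Slc13a4 were at 0 in both libraries, as they were in Cxcl5-Csf3-Il11 fibroblasts. Of 18 tested adipose and progenitor genes 3 were higher, Fabp4, Pparg and Hhip, and 1 was lower, Lpl, and Pparg stood at 15.7 and 20.3 CPM, against values between 1.33 and 17.3 CPM (log2 fold change 1.55, standard error 0.19, adjusted p = 4.29e-05). Of 13 tested cornea and sclera markers 1 was lower, Fmod, and of 10 tested smooth muscle and myofibroblast genes 1 was higher, Pdlim3.

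Of the 4 tested mural markers 2 were higher in Crabp2-Ephb1 fibroblasts, beside 3.29% of all genes tested. Rgs5 stood at 708 and 900.4 CPM, against values between 45.8 and 934 CPM (log2 fold change 1.34, standard error 0.10, adjusted p = 3.47e-06), and Kcnj8 at 105 and 100.1 CPM, against values between 8.44 and 642 CPM (log2 fold change 1.28, standard error 0.28, adjusted p = 0.0213). The 6 mural markers summed to 838 and 1243 raw CPM in Crabp2-Ephb1 fibroblasts, against 76.1 to 1554 raw CPM in the other subsets and 1574 and 2074 raw CPM in fibroblasts with no subset, and Higd1b, which the fibroblast gate limits, was at 0 in library 1. The endothelial markers summed to 20.4 and 32.0 raw CPM, against 5.97 to 42.1 raw CPM. The T and NK markers summed to 3.94 and 5.18 raw CPM with 5 of 6 at 0, as in both libraries of Angptl7-Cilp2 fibroblasts. The RPE markers summed to 1448 and 1761 raw CPM, against 35.5 to 12278 raw CPM, and the melanocyte markers to 239.98 and 650.04 raw CPM, against 399 to 1093 raw CPM. The macrophage markers summed to 116 and 65.8 raw CPM and the Schwann markers to 250.2 and 258 raw CPM, both inside the range of the other subsets. Among the tested markers of endothelium, macrophages, melanocytes, RPE, Schwann cells, T and NK cells and rods, and among 12 cycling genes, edgeR called 0, although 2 endothelial and 3 Schwann markers were higher at an unadjusted p under 0.05 and DESeq2 called 1 Schwann marker higher. The part of mural RNA in the results was not tested.

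Of the 3 subsets with the most like profiles, Cxcl5-Csf3-Il11 differed in the fewest genes, with 38 higher (0.309%) and 89 lower (0.723%) in Crabp2-Ephb1 fibroblasts. Against Tfpi2-Tcf21 fibroblasts 369 were higher (3.0%) and 397 lower (3.23%), and against Ltbp2-Comp fibroblasts 706 were higher (5.74%) and 399 lower (3.24%). These comparisons share the Crabp2-Ephb1 profiles. The genes described for them are among the 8 with the largest fold changes in each direction and were chosen after their values were seen.

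Against Cxcl5-Csf3-Il11 fibroblasts, Crabp2-Ephb1 fibroblasts had more Cd34, a sialomucin of progenitors and stroma, at 78.3 and 105 CPM against 29.7 and 35.2 CPM (log2 fold change 1.49, adjusted p = 3.20e-04). Klf2, a transcription factor known for its response to flow in endothelium, stood at 306 and 199 CPM against 90.7 and 96 CPM (log2 fold change 1.39, adjusted p = 0.00509). Cytokines were lower, among them Cxcl1 at 677 and 285 CPM against 2796 and 1557 CPM (log2 fold change -2.23, adjusted p = 4.34e-04), Ccl2 at 1046 and 501 CPM against 4031 and 2152 CPM (log2 fold change -2.02, adjusted p = 0.00526) and Il6 at 83.8 and 129 CPM against 390.4 and 357 CPM (log2 fold change -1.78, adjusted p = 0.00558). The gate of the other subset holds the cytokine genes Cxcl5, Csf3 and Il11, so its cells were chosen on genes of the same kind, and these differences are not independent of that gate.

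Against Tfpi2-Tcf21 fibroblasts, Crabp2-Ephb1 fibroblasts had more Tnmd, the tendon protein tenomodulin, at 229.5 and 216 CPM against 15.1 and 26 CPM (log2 fold change 3.37, adjusted p = 0.00446), and more Chil1, a secreted chitinase-like protein, at 1138 and 793 CPM against 83 and 119.9 CPM (log2 fold change 3.18, adjusted p = 0.00295). Igfbp6 stood at 987 and 419 CPM against 112 and 74.4 CPM (log2 fold change 2.83, adjusted p = 5.55e-05). Bhlhe22, a helix-loop-helix transcription factor, was lower at 2.43 and 4.07 CPM against 56.3 and 49.8 CPM (log2 fold change -4.01, adjusted p = 2.42e-05), as was Rbp4, the retinol carrier of plasma, at 11.1 and 7.32 CPM against 95.3 and 37 CPM (log2 fold change -2.74, adjusted p = 2.29e-04). In each of these 5 genes both Crabp2-Ephb1 values lay on the same side of both Tfpi2-Tcf21 values.

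Against Ltbp2-Comp fibroblasts, the chemokine Ccl11 was higher in Crabp2-Ephb1 fibroblasts at 227 and 296 CPM against 25.1 and 18.6 CPM (log2 fold change 3.63, adjusted p = 0.0223), and Cmpk2, a mitochondrial nucleotide kinase, stood at 57.7 and 56.4 CPM against 7.93 and 7.85 CPM (log2 fold change 2.85, adjusted p = 2.35e-07). Chad was lower at 108 and 76.5 CPM against 1224 and 916 CPM (log2 fold change -3.54, adjusted p = 7.37e-07). Chad thus lay between the Tfpi2-Tcf21 and Ltbp2-Comp levels, and it was higher than in Tfpi2-Tcf21 fibroblasts (log2 fold change 2.82, adjusted p = 1.13e-05).

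The gate joins cells that carry different gate genes. Cells whose largest gate count was Crabp2 numbered 216 in library 1 and 147 in library 2, those led by Nrk 60 and 207, those led by Ephb1 30 and 71, and 10 and 19 were tied. The share led by Crabp2 was thus well above that led by Nrk in library 1 and below it in library 2. These groups were made from the gate counts, and their raw CPM are a description with no test.

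Fmo1 was of like height in all 3 groups of Crabp2-Ephb1 cells, at 351 and 313 raw CPM in Crabp2-led, 255 and 277 in Ephb1-led and 243 and 311 in Nrk-led cells. Pgf stood at 295 and 277 raw CPM in Crabp2-led, 345 and 417 in Ephb1-led and 329.9 and 302 in Nrk-led cells. Other genes followed 1 group. Rspo3 stood at 137 and 162 raw CPM in Ephb1-led cells, against 37.6 and 53.9 in Crabp2-led and 34.1 and 73.3 in Nrk-led cells. Alkal2 stood at 259 and 208 in Ephb1-led cells, against 56.6 and 66.7 in Crabp2-led and 96 and 165 in Nrk-led cells. Angpt1 stood at 678 and 911 in Ephb1-led cells, against 291 and 548 in Crabp2-led and 483 and 625 in Nrk-led cells. In both libraries the Ephb1-led cells were thus highest for these 3 genes. Crym stood at 180.2 and 93.7 raw CPM in Crabp2-led cells, against 94.1 and 48.9 in Ephb1-led and 104 and 39.5 in Nrk-led cells, and was highest in the Crabp2-led cells of both libraries. Ifit1 stood at 1547 and 1428 in Crabp2-led, 686 and 1022 in Ephb1-led and 1107 and 1391 in Nrk-led cells and was lowest in Ephb1-led cells.

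**Figure D5:**
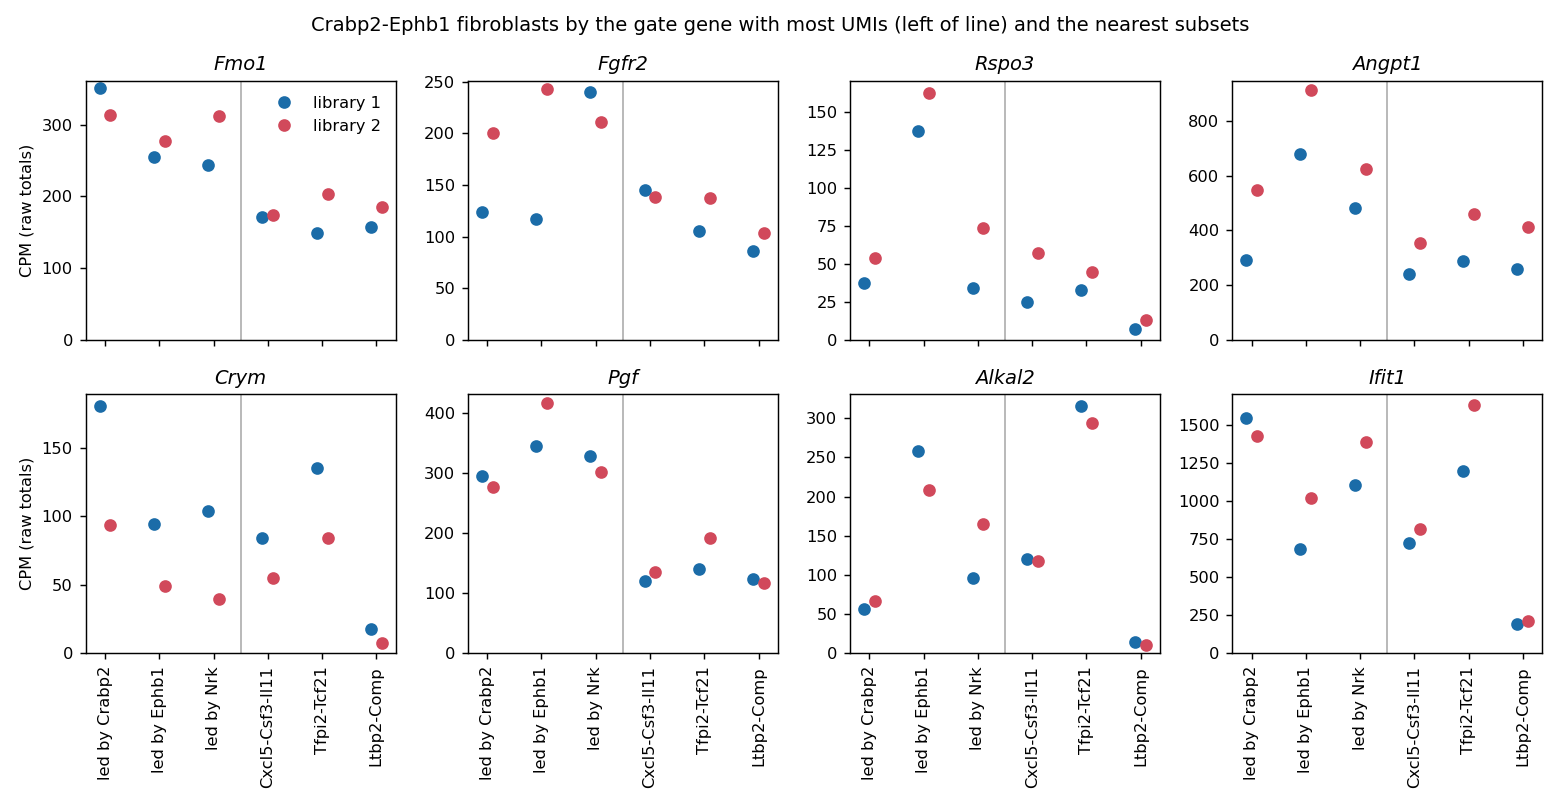
Levels (raw CPM) of selected genes in Crabp2-Ephb1 cells grouped by the gate gene with the largest count, with 1 point per library. Among these 3 groups, Rspo3, Alkal2 and Angpt1 are highest in Ephb1-led cells (Rspo3 at 137 and 162). Crym is highest in Crabp2-led cells (180.2 and 93.7), and Fmo1 and Pgf lie close together in the 3 groups.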

How the data were processed

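The deposited matrices are unfiltered counts of UMIs for each gene in each barcode. The authors used Cell Ranger, whose version is 4 per the file headers but 2.1.1 per the submitters' processing notes, with mm10 as the build per those notes. Which annotation they used is not stated in the sources used here. Barcodes were filtered, gated and summed per library and subset in Python 3.11.15, and the counts were tested in R 4.3.3 with edgeR 4.0.16 (TMM, filterByExpr, robust quasi-likelihood fit, library as a block because both libraries hold every subset of the same animals). The 32 gate and label genes stayed in the library sizes and were not tested. Alternatives were Scrublet doublets removed (scanpy 1.11.5), other limits of the gate, thinning, other normalization, no block and DESeq2 1.42.0. Named genes were the 15 largest increases and 10 largest decreases called at a mean of at least 50 CPM, all genes of the retinoic acid, Eph and FGF lists, and up to 3 called genes of each other list, and some of these are not reported here. For genes higher than in every other subset, the 10 ranking first at a mean of at least 50 CPM in Crabp2-Ephb1 fibroblasts were shown although none passed. Ranges against other profiles are the lowest and highest of 12 values. Gene positions came from GENCODE M21 (GRCm38), in which 32235 of 32285 gene IDs were found, and promoter windows from RefSeq (GRCm38.p6). The members and lists were chosen with earlier results of these data known. Of the 91741168 and 149570817 UMIs of the libraries, the Crabp2-Ephb1 profiles held 3046038 and 4436644. Genes under a few CPM thus rest on few UMIs in this subset.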

Additional observations from a re-analysis of the deposited data

How the results depend on the processing

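The number of genes higher in Crabp2-Ephb1 fibroblasts (405) lay between 285 and 488 under the alternatives, and the number lower (163) between 128 and 192 except in the fit with no replicate block. Without the replicate block the pairing by library is ignored, and that fit gave 285 higher and 77 lower. Genes higher than in every other subset numbered 0 under all alternatives except thinning to 3000 UMIs, which gave 1, Ano1. The share of Crabp2-Ephb1 cells (7.20%) was 4.39% after thinning, 5.35% with a gate sum of at least 5 UMIs, 4.09% when 2 gate genes had to be detected and 8.01% with a fibroblast sum of at least 20 UMIs, and leaving out 1 library gave 6.84% to 7.57%. With 1 library no residual degrees of freedom remain, so calls were not recounted without a library, but all 142 single-library values of the named genes kept their direction. Of 846 values of the 71 named genes with an adjusted p under 0.05, 787 stayed on their side of the thresholds, 56 lost and 3 gained a call, and none reversed. Of 64 called named genes 36 were called under every setting that tested them, and the fit with no block (13 calls lost) and thinning (10) cost most. Depth limits the gate itself, since 11.4% and 14.9% of the cells sat at its limit of 3 UMIs.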

Other observations

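Each library pooled 1 male and 1 female mouse, and cells with Xist alone or with Y-linked transcripts alone were read as those of the female or the male. The Crabp2-Ephb1 share of gated fibroblasts was 7.56% (exact binomial 95% interval 6.36 to 8.90) among Xist-only and 8.12% (6.79 to 9.62) among Y-linked-only cells of library 1, and 6.03% (5.28 to 6.83) and 8.72% (7.47 to 10.1) in library 2. The library difference in Crabp2 was present in both sexes. In raw CPM it stood at 1289 in Xist-only and 952 in Y-linked-only Crabp2-Ephb1 cells of library 1, and at 296 and 311 in those of library 2. Ifit1 stood at 2131 in Xist-only and 845 in Y-linked-only cells of library 1 and at 1062 and 1839 in library 2, so the higher sex changed between libraries. Crym did the same, at 239 and 86.0 in library 1 and 40.5 and 88.7 in library 2. Pgf was higher in the Y-linked-only cells of both, at 295 and 415 in library 1 and 286 and 336 in library 2. With 1 animal of each sex per library these are values of single animals, and no test was made.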
